A study of Mus musculus with 4 samples.

Results

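The genes described here encode the enzymes that turn prohormones into active peptides, with 1 inhibitor of these enzymes. The set has 7 genes, out of 29161 in the deposited count table, and was defined by name: the convertases Pcsk1 and Pcsk2, the convertase inhibitor gene Pcsk1n, the carboxypeptidases Cpe and Cpd, the amidating enzyme gene Pam and the glutaminyl cyclase gene Qpct. All 7 were present in the table and all 7 passed the filter on low counts, Qpct only through the class of cells in which it was highest (below). They were measured in 290 single cells by sequencing of polyadenylated RNA, and cells were grouped by the hormone gene they expressed.

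The cells came from enteroids, which are mini-guts grown in Matrigel from the duodenum or jejunum of adult female CD1 Neurog3eYFP/+ mice. In these mice 1 allele of Neurog3, the transcription factor gene that starts endocrine differentiation in the intestine, carries the yellow fluorescent protein eYFP, and every cell in the study has this genotype. The culture medium held R-spondin-1, EGF and Noggin, and single living eYFP+ cells were sorted into 4 plates of 92 cells each. Plate 1 held duodenum cells of a 39-week-old mouse, plates 2 and 3 duodenum cells at 12 weeks, and plate 4 jejunum cells at 12 weeks. The labels do not say whether plates 2 and 3 came from separate mice. The p-values of class comparisons below thus measure only how class differences vary between plates. Those of whole plates measure the spread between plates. Either spread may be technical. Because eYFP outlasts Neurog3 expression, as background, the gate can hold progenitors and other secretory cells besides endocrine cells.

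Peptide hormones are made as inactive precursors in the endoplasmic reticulum and are cut in the secretory granule. Prohormone convertases cut after pairs of basic residues, carboxypeptidase E removes the basic residues left at the new end, and peptidylglycine alpha-amidating monooxygenase turns a C-terminal glycine into an amide. The order and choice of cuts decides which hormone a precursor gives: in intestinal L cells the convertase encoded by Pcsk1 releases the glucagon-like peptides from proglucagon, whereas in pancreatic alpha cells the convertase encoded by Pcsk2 releases glucagon. Serotonin needs none of these steps, since it is made from tryptophan by the enzyme that Tph1 encodes. Enterochromaffin cells, the serotonin cells of the gut, nevertheless fill their granules with chromogranins and often with peptides such as tachykinins.

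A cell was assigned to a hormone where Gcg, Gip, Cck, Ghrl or Sst reached 1000 CPM (counts per 1000000 counts of the cell), or Tph1 reached 200 CPM. Cells with Gcg, Gip or Cck, singly or together, form the incretin/CCK class (0, 15, 7 and 8 cells in plates 1 to 4). Cells with Ghrl alone form the ghrelin class (2, 4, 0 and 4 cells), and cells with Tph1 alone the serotonin class (20, 25, 19 and 30 cells). The 145 cells in which no gene reached its limit form the below-limit class (49, 35, 43 and 18 cells). The other 10 cells combined hormones of several classes and 1 cell had Sst alone; both were described but not tested. The lowest value inside and the highest outside the limit were 1239 and 548 CPM for Gcg, 2072 and 907 for Gip, 1072 and 879 for Cck, 1284 and 942 for Ghrl, 92358 and 751 for Sst, and 223 and 185 for Tph1. Levels of a class are the CPM of its summed cells in a plate. The counts come from a method that reads mainly the 3′ end, with no length scaling, so levels are compared between cells for the same gene and not between genes.

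The table kept 72, 83, 72 and 63 cells of plates 1 to 4, with 23893272 to 46490618 counts per plate and 202711 to 2312044 counts per cell. Plate 1 stood apart: 12 genes with at least 20 CPM in each other plate, among them Gcg, Gip, Isl1 and Scg3, had 0 counts there, and no other plate had such a gene. Goblet and Paneth markers were highest in the below-limit class. There 7 goblet markers summed to 16179 to 21799 CPM and 6 Paneth markers to 3390 to 11809 CPM. Goblet sums were 512 to 1163 CPM in serotonin, 2376 to 7803 CPM in incretin/CCK and 3512 to 14566 CPM in ghrelin cells. Paneth sums were 249 to 382, 338 to 1065 and 894 to 3124 CPM in the same order. Enterocyte markers summed to 225 to 529 CPM in incretin/CCK cells, 135 to 337 CPM in below-limit cells and at most 232 CPM in the others. In the below-limit class 23 cells had goblet and Paneth markers at 50000 CPM or more, a limit set after the data were seen. In the same class 7 enteroendocrine markers still summed to 3077 to 8733 CPM, against 65460 to 105293 CPM in the serotonin class. Most of the serotonin sum was Chgb, at 59783 to 93525 CPM. Incretin/CCK cells had 9877 to 25676 CPM of these markers and ghrelin cells 5733 to 6211 CPM, inside the below-limit range. The 3 mesenchymal markers summed to 747 to 2344 CPM in the serotonin class, almost all of it Vim, and to at most 411 CPM elsewhere, with Col1a1 or Col3a1 at 0 in every sum but 1. Immune and tuft markers summed to less than 2 CPM in every class and plate.

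RefSeq promoter sequences (GRCm38.p6) were found for 5 of the 7 genes. Those of Pcsk1 and Pam are shown because transcripts of these genes followed each other most closely across the classes (below), while their promoters differ in composition. Each is printed 5′ to 3′ in the direction of transcription, ending at the gene's start in GENCODE M21, and capitals mark motif matches on either strand. The Pcsk1 stretch is chr13:75089607-75089825 on the plus strand, and its capitals mark TGACG, the half-site of the cyclic AMP response element.
Pcsk1: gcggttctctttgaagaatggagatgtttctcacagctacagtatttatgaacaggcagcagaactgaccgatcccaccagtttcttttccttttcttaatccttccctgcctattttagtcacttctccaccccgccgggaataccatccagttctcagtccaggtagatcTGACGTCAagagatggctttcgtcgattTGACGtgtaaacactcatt
The Pam stretch is chr1:98095647-98095896 on the minus strand, and its capitals mark GGGCGG (the GC box) and 1 CANNTG (the E-box).
Pam: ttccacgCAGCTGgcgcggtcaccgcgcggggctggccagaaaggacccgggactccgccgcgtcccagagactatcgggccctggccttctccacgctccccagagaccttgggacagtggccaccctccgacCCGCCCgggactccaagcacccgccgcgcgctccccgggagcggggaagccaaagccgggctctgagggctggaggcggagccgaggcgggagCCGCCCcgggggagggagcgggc
The 250 bases before the RefSeq start of Pcsk1 held 3 matches to TGACG, of which 2 overlap on opposite strands in the palindrome TGACGTCA, and no GC box, E-box or TATAAA. The printed Pam window held 2 GC boxes, 1 E-box, no TGACG and no TATAAA, and a second RefSeq window of Pam, chr1:98095633-98095882, held 3 GC boxes and none of the other motifs. Of 32851 mouse promoters of the same length, 17.8% held TGACG, 32.7% GGGCGG, 66.2% CANNTG and 12.4% TATAAA. The Pcsk1 window was 46.8% G or C and the printed Pam window 75.6%, against a median of 52.4% over all promoters. These matches describe letters only.

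Pcsk1 (chromosome 13, 75089826 to 75134861, plus strand) encodes the convertase that does most of the prohormone cutting in intestinal endocrine cells. Its transcripts stood at 416, 321 and 546 CPM in the incretin/CCK class of plates 2, 3 and 4. In the ghrelin class they stood at 561 CPM in plate 2 and 1008 CPM in plate 4, the highest value in any class, and 2 ghrelin cells of plate 1 gave 165 CPM. The serotonin class had 276, 629, 435 and 586 CPM in plates 1 to 4, and the below-limit class 148, 113, 54.0 and 161 CPM. Within every plate each hormone class lay above the below-limit class, and the hormone classes overlapped one another. Serotonin itself needs no convertase, and serotonin cells carried Pcsk1 transcripts at 481 ± 160 CPM (SD, n = 4 plates). The incretin/CCK class had 428 ± 113 CPM (n = 3) and the below-limit class 119 ± 47.9 CPM (n = 4). Serotonin cells also held Tac1, the tachykinin precursor gene, at 2632 to 5585 CPM, against 129 to 203 CPM in below-limit cells.

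Pcsk1 rose in ghrelin cells (log2 fold change 2.14 ± 0.42 SE, edgeR quasi-likelihood adjusted p = 0.0483) and in serotonin cells (1.84 ± 0.34, edgeR adjusted p = 0.0284) against below-limit cells. In the incretin/CCK class the log2 difference was 1.71 ± 0.37 and did not pass (edgeR adjusted p = 0.136; DESeq2 adjusted p = 0.00185), although the level was 3.38 to 5.95 times that of below-limit cells in each of 3 plates. No pair of hormone classes passed the test: the log2 difference was −0.13 ± 0.35 between incretin/CCK and serotonin cells, 0.31 ± 0.41 between ghrelin and serotonin cells and −0.44 ± 0.42 between incretin/CCK and ghrelin cells (edgeR adjusted p = 0.973, 0.73 and 0.694). Those small differences stand beside an SE of similar size, so they do not show equal levels.

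**Figure D1:**
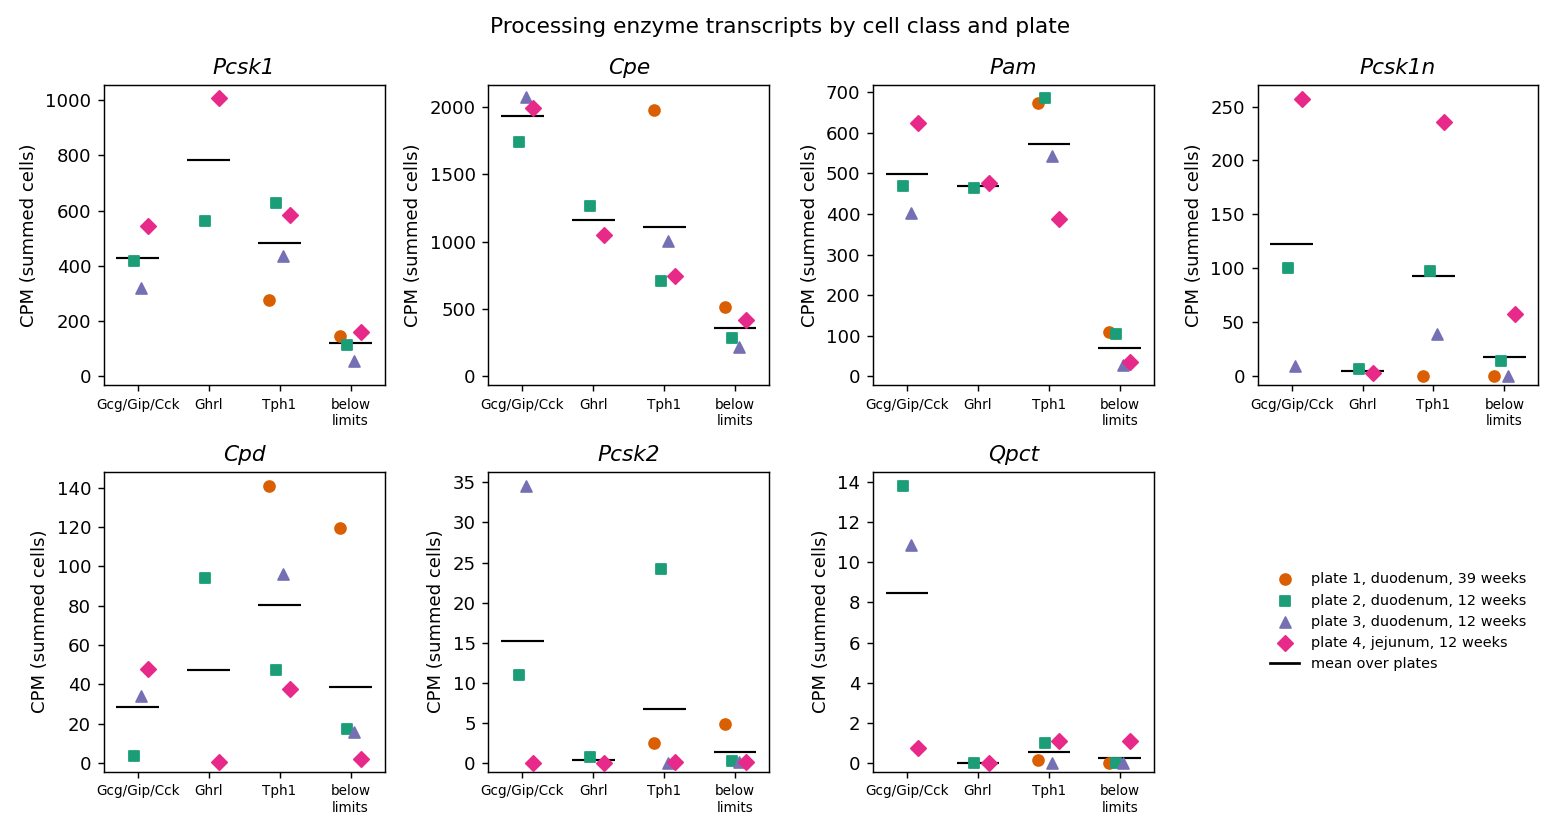
Transcript level of each of the 7 genes, in CPM of summed cells, by cell class; each point is a plate with at least 3 cells of the class, shape and color give the plate, and the black line is the mean over plates. Pcsk1, Cpe and Pam lie lowest in below-limit cells, and Pcsk1n lies at 3.1 and 7.1 CPM in Ghrl cells. The mean of Cpe is highest in Gcg/Gip/Cck cells, at 1743 to 2070 CPM by plate, while the Tph1 cells of plate 1 reach 1980 CPM.

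Pcsk2 (chromosome 2, 143546156 to 143816285, plus strand) encodes the convertase that makes glucagon in the pancreas. It was rare in these cells: 584 counts in all 290 cells, and 6 cells with at least 5 counts. Of these 6 cells, 3 were serotonin cells (37.6, 182 and 214 CPM), 2 were Gip cells of the incretin/CCK class (138 and 206 CPM) and 1 was a below-limit cell (239 CPM). None of the 11 Gcg cells had a Pcsk2 count, and a count of 0 in 11 cells allows up to 27.3% of such cells with a Pcsk2 count, which limits detection and not expression. In 5 of the 6 cells Pcsk1 was present at 402 to 952 CPM. The exception was the only Gip cell of plate 3, which had Pcsk2 at 206 CPM, Cpe at 3305 CPM, Pam at 33.4 CPM and no Pcsk1 count. Of the 13 class-by-plate sums, 10 had counts of Pcsk2, at no more than 34.6 CPM, and no class comparison of Pcsk2 passed with edgeR or DESeq2. Pcsk2 shares 260 exonic bases with the antisense gene Pcsk2os1, and whether counting used strand is not given in the sources used here.

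Pcsk1n (chromosome X, 7919822 to 7924410, plus strand) encodes proSAAS, a granule protein that inhibits the convertase encoded by Pcsk1. Its summed level was lower in ghrelin cells than in the other hormone cells of the same plates, though most single cells of these classes held little of it. In plates 2 and 4 the ghrelin class held 7.1 and 3.1 CPM, from 10 and 7 counts. The serotonin class held 97.3 and 236 CPM in the same plates and the incretin/CCK class 100 and 257 CPM, while below-limit cells held 14.2 and 57.9 CPM. Of the incretin/CCK counts of plate 4, 61.2% came from 1 cell. The median cell of plate 2 had 3.4 CPM in both the incretin/CCK and the serotonin class, and that of plate 4 had 15.4 CPM in incretin/CCK, 79.4 CPM in serotonin and 3.0 CPM in ghrelin cells. In plate 3, levels were lower in each class: 9.9 CPM in incretin/CCK cells, 39.4 CPM in serotonin cells, of which 93.4% came from 1 cell, and 0.49 CPM in below-limit cells. Plate 1 had no count of Pcsk1n in any of its 72 cells, including 20 serotonin cells.

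The ghrelin against serotonin difference in Pcsk1n was −5.52 ± 1.37 on the log2 scale and did not pass with edgeR (adjusted p = 0.104), but passed with DESeq2 (adjusted p = 0.000142). The incretin/CCK against ghrelin difference was 4.87 ± 1.30 (edgeR adjusted p = 0.152, DESeq2 adjusted p = 0.00105). Against below-limit cells the differences were 2.60 ± 0.94 in incretin/CCK, 3.25 ± 1.00 in serotonin and −2.27 ± 1.19 in ghrelin cells, and none passed (edgeR adjusted p = 0.407, 0.264 and 0.366), while DESeq2 called the serotonin difference. With every cell thinned to 100000 counts, Pcsk1n was seen in 93.3% of the serotonin cells of plate 4 (exact 95% interval 77.9 to 99.2), in 48% of those of plate 2 and in 1 of 4 ghrelin cells in each of plates 2 and 4. In plate 4, 3 of 4 cells with high goblet and Paneth markers also had 1 or more counts of Pcsk1n, at 8 counts in all.

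Cpe (chromosome 8, 64592542 to 64693054, minus strand) encodes the carboxypeptidase that trims nearly all granule peptides. In summed counts it showed the clearest order of classes. The incretin/CCK class held 1743, 2070 and 1991 CPM in plates 2 to 4, the ghrelin class 1267 and 1052 CPM in plates 2 and 4, and the serotonin class 1980, 706, 1008 and 748 CPM in plates 1 to 4. Below-limit cells held 517, 283, 219 and 419 CPM. In plates 2 and 4, where all 4 classes were present, the order was incretin/CCK, ghrelin, serotonin and below-limit in both. Single cells did not follow this order. Over cells of all plates the mean log2(CPM + 1) was 9.24 in incretin/CCK, 10.0 in ghrelin and 9.18 in serotonin cells. The mean was 1935 ± 171 CPM (n = 3) in incretin/CCK cells and 1111 ± 595 CPM (n = 4) in serotonin cells, whose spread comes from plate 1: without it the serotonin values did not reach the lowest incretin/CCK value.

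Cpe rose in all 3 hormone classes against below-limit cells: by 2.59 ± 0.24 (log2) in incretin/CCK cells, 1.68 ± 0.26 in ghrelin cells and 1.32 ± 0.22 in serotonin cells (edgeR adjusted p = 0.00278, 0.0241 and 0.0142). Incretin/CCK cells held 2.05 to 2.66 times the Cpe of serotonin cells in each of the 3 plates with both. That difference of 1.27 ± 0.24 did not pass after adjustment over all genes with edgeR (adjusted p = 0.147) and passed with DESeq2 (adjusted p = 0.0116). Incretin/CCK against ghrelin gave 0.91 ± 0.29 (edgeR adjusted p = 0.207) and ghrelin against serotonin 0.36 ± 0.28 (edgeR adjusted p = 0.519), so neighbours in the order of levels were not separated by this test.

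Cpd (chromosome 11, 76778424 to 76847018, minus strand) encodes a carboxypeptidase of the trans-Golgi network found in many cell types. Its level was 3.7, 34.3 and 47.9 CPM in incretin/CCK cells of plates 2 to 4, 93.9 and 0.44 CPM in ghrelin cells (plates 2 and 4), and 141, 47.4, 96.0 and 37.6 CPM in serotonin cells of plates 1 to 4. Below-limit cells had 120, 17.4, 15.6 and 1.9 CPM. In both classes tested in plate 1 that plate gave the highest level. Single cells gave 100% of the counts in incretin/CCK cells of plate 3 and 80.3% in ghrelin cells of plate 2. Serotonin cells held more Cpd than below-limit cells in each of 4 plates, by 1.18, 2.73, 6.17 and 19.5 times in plates 1 to 4, with a fitted log2 difference of 1.77 ± 1.38. In plate 4 the below-limit cells had 21 counts, and 1 serotonin cell held 39.4% of all Cpd counts of the plate. No class passed the test against below-limit cells (edgeR adjusted p = 0.792, 0.746 and 0.706 for incretin/CCK, ghrelin and serotonin).

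Pam (chromosome 1, 97795114 to 98095646, minus strand) encodes the only known amidating enzyme, needed for the active amide form of CCK among others. Its level was 470, 401 and 624 CPM in incretin/CCK cells of plates 2 to 4, 464 and 475 CPM in ghrelin cells (plates 2 and 4), and 674, 685, 542 and 387 CPM in serotonin cells of plates 1 to 4. Below-limit cells had 110, 105, 27.4 and 34.2 CPM, all lower than the lowest hormone class value. The 2 ghrelin cells of plate 1, which entered no test, had 27.8 CPM. The levels of ghrelin cells, whose main product is acylated rather than amidated, and of serotonin cells thus overlapped those of the class that contains CCK cells.

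Pam had the largest difference from below-limit cells of the 3 members that passed: 3.10 ± 0.47 (log2) in incretin/CCK, 2.65 ± 0.51 in ghrelin and 2.98 ± 0.42 in serotonin cells (edgeR adjusted p = 0.0346, 0.0472 and 0.00607). Between hormone classes the differences were 0.12 ± 0.44 (incretin/CCK against serotonin), −0.32 ± 0.52 (ghrelin against serotonin) and 0.45 ± 0.52 (incretin/CCK against ghrelin), with edgeR adjusted p = 0.98, 0.783 and 0.764. Pam shares 188 exonic bases on the same strand with B230216N24Rik, which had 1706 counts of its own, so some reads could belong to either gene.

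Qpct (chromosome 17, 79051906 to 79090378, plus strand) encodes the enzyme that closes an N-terminal glutamine into pyroglutamate, a cap carried by neurotensin among the gut peptides. It was the rarest member, with 203 counts in all cells and 10 cells with at least 5 counts. Of these, 4 were incretin/CCK cells (13.9 to 157 CPM), 3 serotonin cells (7.1 to 14.8 CPM), 2 cells with Cck and Ghrl together (8.9 and 9.0 CPM) and 1 a below-limit cell (20.3 CPM). Each of the 6 incretin/CCK and mixed cells had Cck at or above its limit, alone or with another hormone. Most cells of these groups did: all 35 cells with Cck at its limit lie among the 30 incretin/CCK and 10 mixed cells. The 6 cells therefore do not tie Qpct to Cck. The plate sums were 13.8, 10.9 and 0.72 CPM in incretin/CCK cells of plates 2 to 4, 0 in ghrelin cells of plates 2 and 4, and at most 1.1 CPM in the other tested classes. Qpct passed the filter on low counts only through the incretin/CCK sums of plates 2 and 3, so its place in the edgeR fit depends on that class. In plate 2, 91.8% of the incretin/CCK counts came from 1 Cck cell. No comparison of Qpct passed with edgeR, and with DESeq2 Qpct passed in incretin/CCK against below-limit cells.

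**Figure D2:**
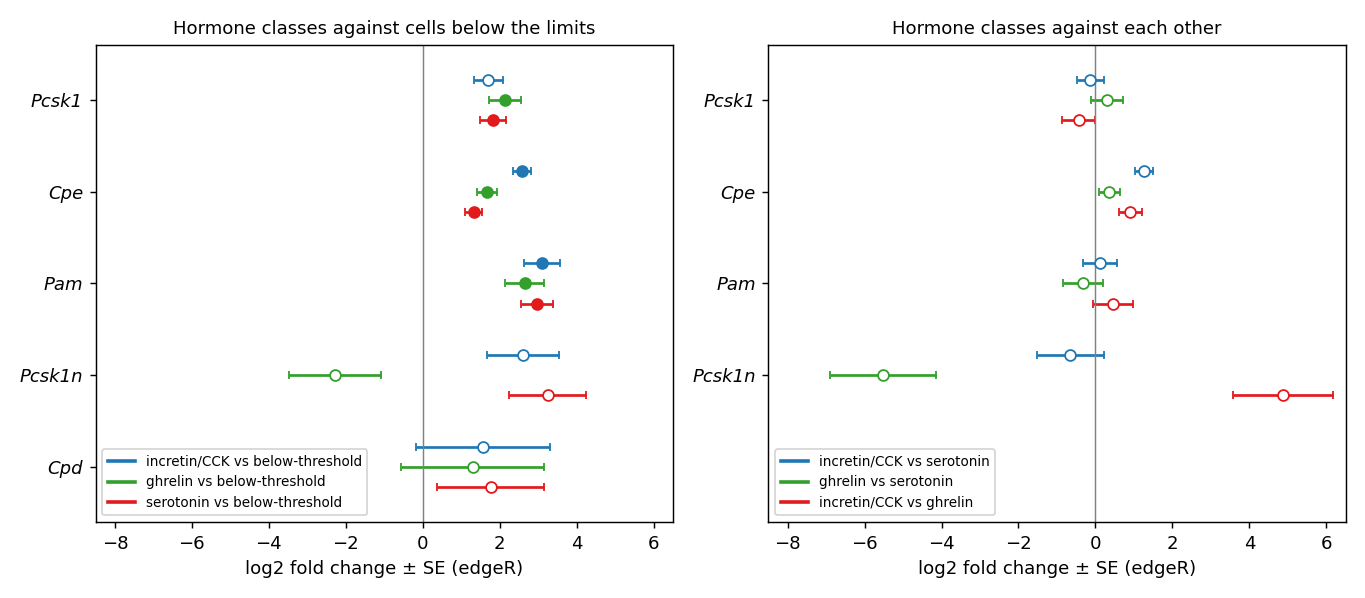
Difference in log2 level with its standard error (edgeR), for hormone classes against below-limit cells (left, 5 genes) and between hormone classes (right, 4 genes); filled points passed an adjusted p of 0.05 over all genes and open points did not. Filled points are found only for Pcsk1, Cpe and Pam on the left, at 1.32 to 3.10, and the ghrelin class lies low only for Pcsk1n.

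Counted over the set, 2 of 7 genes rose in incretin/CCK cells against below-limit cells (Cpe and Pam), where 0.339% of all genes passed in either direction and 0.12% were higher. In ghrelin cells 3 of 7 rose (Pcsk1, Cpe and Pam), against 1.05% of all genes passing and 0.0997% higher, and in serotonin cells the same 3 rose, against 1.32% and 0.272%. None of the 7 fell in these 3 comparisons, where 0.219%, 0.95% and 1.04% of all genes were lower. Between hormone classes none of the 7 passed, where 0.12% (incretin/CCK against serotonin), 1.07% (ghrelin against serotonin) and 0.678% (incretin/CCK against ghrelin) of 15050 genes did. At an unadjusted edgeR p under 0.05 there were 1, 1 and 3 of the 7 in these comparisons, and DESeq2 called 1 in each: Cpe, Pcsk1n and Pcsk1n. Over all genes the shares were 8.61%, 17.6% and 13.8% at that unadjusted p and 8.59%, 17.8% and 14.5% called by DESeq2, and 1 of 7 members is near these shares. The median gene tested moved by −0.54, −1.68 and −0.04 (log2) in incretin/CCK, ghrelin and serotonin cells against below-limit cells, while the set's medians were 2.60, 1.30 and 1.84. Of the set's medians, 2.60 is the value of Pcsk1n (SE 0.94) and 1.30 that of Cpd (SE 1.86), neither of which passed. Relative to the median of all genes, Pcsk1, Cpe and Pam stood 3.83, 3.36 and 4.34 higher in ghrelin cells. That median was −1.36 with RLE size factors, −0.14 with DESeq2 and −0.10 with limma on cell means, so these distances depend on the method. Markers of goblet and Paneth cells also differed between the classes, and their part in these differences was not tested. With the 23 goblet- and Paneth-high cells left out, an alternative added after the data were seen, all 8 calls kept their direction but 4 missed the threshold: Pam in incretin/CCK cells (2.80, edgeR adjusted p = 0.0554), Pam and Pcsk1 in ghrelin cells (2.40 and 2.23, edgeR adjusted p = 0.0645 and 0.0519) and Cpe in serotonin cells (1.02, edgeR adjusted p = 0.0599).

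The calls rest on few plates. Leaving out 1 plate at a time kept every direction, but ended the Cpe call in incretin/CCK cells without plate 2, 3 or 4 (edgeR adjusted p = 0.0590, 0.0946 and 0.0627) and the Pam call there without any 1 plate (0.0766, 0.0885, 0.419 and 0.294, edgeR adjusted p). For ghrelin cells the Cpe and Pam calls were lost without any 1 plate (edgeR adjusted p up to 0.217 and 0.210) and the Pcsk1 call without plate 2, 3 or 4 (up to 0.323). In serotonin cells, Pcsk1 was lost without plate 2, 3 or 4 (edgeR adjusted p = 0.270, 0.258 and 0.234), Cpe without plate 1, 2 or 3 (0.104, 0.124 and 0.198, edgeR adjusted p) and Pam only without plate 3 (2.67, edgeR adjusted p = 0.0799). Without the plate as a block, 4 calls were lost: Pam in incretin/CCK (edgeR adjusted p = 0.0518), Cpe in ghrelin (0.0793), and Pcsk1 and Cpe in serotonin cells (0.0721 and 0.0959). Thinning every cell to 100000 counts ended the calls of Pcsk1 and Cpe in ghrelin (edgeR adjusted p = 0.0951 and 0.0623) and in serotonin cells (0.0798 and 0.0506). Pcsk1 in ghrelin cells was also lost without the low-count filter and with hormone and granin genes left out of the totals (edgeR adjusted p = 0.0642 and 0.0507). Pam was lost with halved hormone limits in incretin/CCK and ghrelin cells (0.0586 and 0.0721, edgeR adjusted p) and with doubled limits in ghrelin cells (0.0533).

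Taken by single hormone, with cells counted under each hormone they reached, the summed level of Cpe followed the hormone more clearly than that of Pcsk1 or Pam. Cpe stood at 2846, 2728 and 2206 CPM in Gcg cells of plates 2 to 4 (2, 2 and 7 cells) and at 2420, 3305 and 2248 CPM in Gip cells (6, 1 and 4 cells). In Cck cells it stood at 1797, 1679 and 1833 CPM (15, 9 and 10 cells), in Ghrl cells at 1484, 1722 and 1214 CPM (6, 2 and 6 cells) and in Tph1 cells at 706, 986 and 758 CPM (25, 20 and 31 cells). In each of plates 2 to 4, summed Cpe was thus higher in Gcg and in Gip cells than in Cck cells, and lowest in Tph1 cells among these 5 hormones. Single cells varied widely. In plate 2, 95.2% of the Cpe counts of Gcg cells came from 1 cell, and the other had 320 CPM, against a median of 1454 CPM in Cck cells. The Gip cells of plate 2 ran from 8.9 to 5270 CPM. In plate 1, however, 21 Tph1 cells had 2086 CPM, above 2 Ghrl cells with 1629 CPM, and the only Cck cell there had 3779 CPM. The 2 Sst cells, both of plate 2, had 375 CPM of Cpe together. These groups share cells and were not tested.

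Pcsk1 by hormone was highest in Ghrl cells in plates 3 and 4, at 700 and 719 CPM. The plate 3 value came from 2 cells that also had Cck. In plate 2 Ghrl cells had 611 CPM, below Tph1 cells at 629 CPM. In plate 1 they had 165 CPM, below Tph1 cells at 285 CPM and the 1 Cck cell at 440 CPM. Gip cells of plates 2 and 4 had 522 and 602 CPM, Cck cells 391, 482 and 507 CPM in plates 2 to 4 and Gcg cells 318, 684 and 398 CPM. Pam in Gip cells was 960 and 799 CPM in plates 2 and 4, above Cck cells at 565 and 575 CPM of the same plates, whereas the 1 Gip cell of plate 3 had 33.4 CPM against 442 CPM in Cck cells. Pam in Ghrl cells ranged from 27.8 CPM in plate 1 to 1061 CPM in plate 2. Pcsk1n reached its highest value, 470 CPM, in the 4 Gip cells of plate 4, and was 249 CPM in the 7 Gcg cells of that plate. The same cell, at 654 CPM, gave 61.5% of the Gip and 72.2% of the Gcg counts there, and the median Gcg cell had 26.8 CPM. It stayed at 1.6 to 17.0 CPM in Ghrl cells of plates 2 to 4, also when Ghrl cells with Cck were counted.

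**Figure D3:**
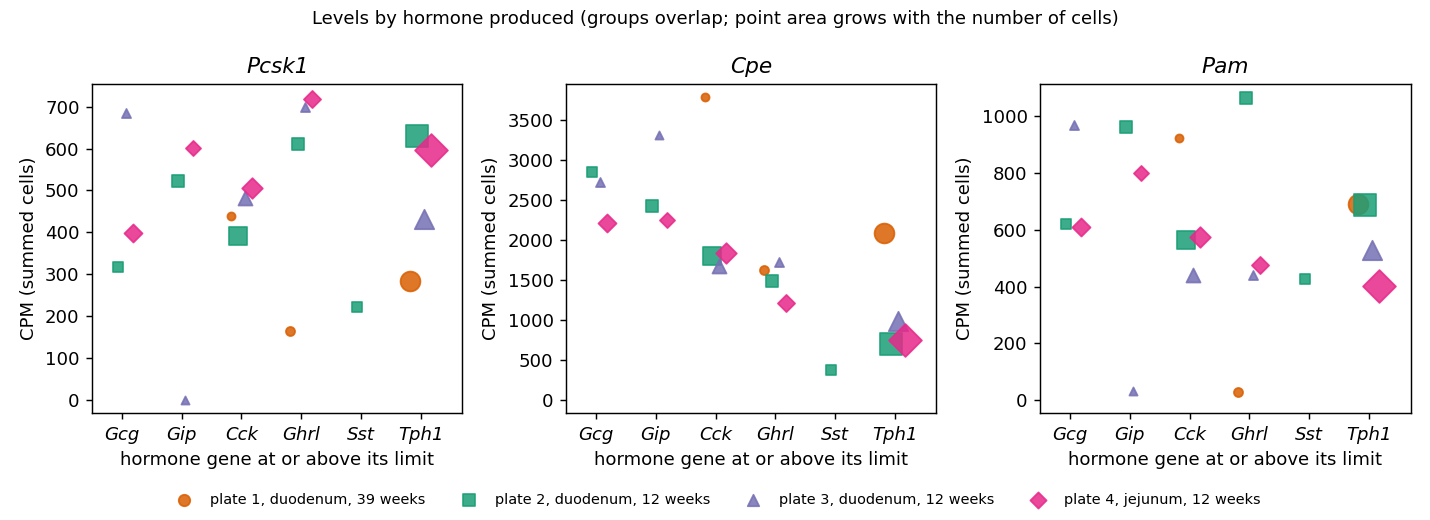
Levels of Pcsk1, Cpe and Pam (CPM of summed cells) in cells at or above the limit for each hormone gene; point shape and color give the plate, point area grows with the number of cells, and a cell with several hormones counts in each. In plates 2 to 4, Cpe is higher in Gcg and Gip cells than in Cck cells, and Tph1 cells lie below all of these and Ghrl cells. The 2 Sst cells of plate 2 lie lower still, at 375 CPM, and the plate 1 Tph1 cells lie apart at 2086 CPM. Pcsk1 and Pam show no such order.

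At the level of single cells, with every cell thinned to 100000 counts, which makes total counts equal but not necessarily molecules, transcripts of Pcsk1, Cpe and Pam were found together in most hormone cells. All 3 were seen in 66.7%, 42.9% and 87.5% of incretin/CCK cells in plates 2 to 4, in 4 of 4 and 3 of 4 ghrelin cells in plates 2 and 4, and in 55%, 72%, 73.7% and 80% of serotonin cells in plates 1 to 4. In below-limit cells the shares were 16.3%, 22.9%, 14.0% and 33.3%. Without thinning the shares rose to 30.6%, 62.9%, 46.5% and 83.3% in below-limit cells and to 70%, 92%, 78.9% and 96.7% in serotonin cells. Exact 95% intervals, which cover counting error only and not the spread between plates, ran from 50.6 to 87.9% for serotonin cells and 10.4 to 40.1% for below-limit cells of plate 2. The 8 incretin/CCK cells of plate 4 gave 47.3 to 99.7%. Below-limit cells ranged widely: their single-cell Cpe level ran from 0 to 3276 CPM in plate 1 with a median of 18.6 CPM, and the serotonin cells of that plate had a median of 1306 CPM.

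Transcripts of these genes were also found in the 23 goblet- and Paneth-high cells, in which expression and background cannot be told apart. As a group they had 38.6 CPM of Cpe, 21.5 CPM of Pam and 116 CPM of Pcsk1. Thinned to 100000 counts, 69.6% of them still had a Cpe count, 65.2% a Pcsk1 count and 39.1% a Pam count. Chgb, an abundant endocrine granule gene, was seen in all 23 of them at 456 CPM. Their pooled Pcsk1 level lay within the plate sums of the whole below-limit class, which were 54.0 to 161 CPM. Taken by plate, it lay below the class in plates 1 to 3, with the widest gap of these in plate 3. In plate 4 it lay above the class, at 284 against 161 CPM. Their Cpe and Pam levels lay below those of the whole class in each of plates 1 to 4. Cpe was at most 93.6 CPM in a plate, against at least 219 CPM in the class. Pam was highest in plate 1, at 50.1 against 110 CPM in the class, and 92% of these counts came from 1 cell. Pcsk1n was at 0.62 CPM and Qpct at 0 counts in these cells.

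**Figure D4:**
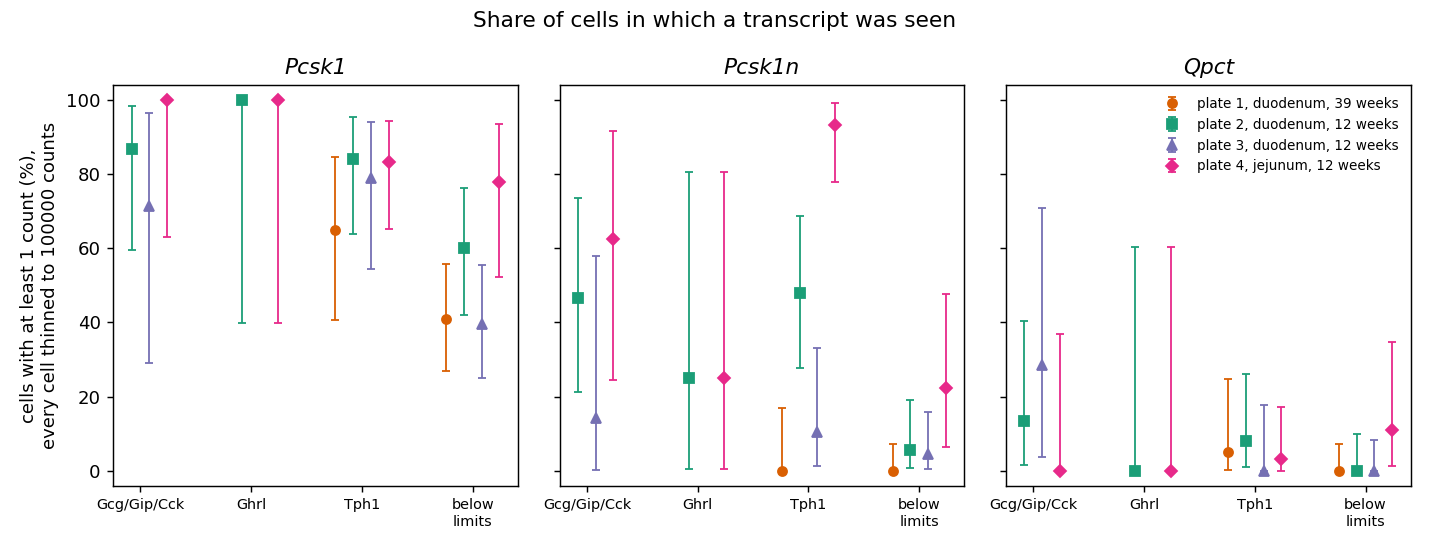
Share of cells with at least 1 count of Pcsk1, Pcsk1n and Qpct after thinning every cell to 100000 counts, by cell class; points are plates and bars are exact 95% binomial intervals, which cover counting error only. Pcsk1 is seen in 65 to 84% of serotonin cells, Pcsk1n ranges from 0% in plate 1 to 93.3% in the plate 4 serotonin cells, and Qpct stays at or below 28.6%.

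Other genes of the pathway came from lists of related enzymes and partners. Among the other subtilisin-like convertases 6 of 7 were tested and none passed in any of the 6 class comparisons. Furin, which cuts precursors in the constitutive pathway of most cells, had 79.5, 4.9 and 14.8 CPM in incretin/CCK cells of plates 2 to 4 and 57.3, 37.3, 9.1 and 7.0 CPM in below-limit cells of plates 1 to 4 (0.24 ± 0.85, edgeR adjusted p = 0.949). The other metallocarboxypeptidases (3 of 6 tested), the cathepsins and aminopeptidases (5 of 5), the other modifying enzymes (4 of 4) and the peptidases that act on secreted peptides (6 of 7) likewise gave no edgeR call. At an unadjusted edgeR p under 0.05 these 5 lists gave 6 of 36, 2 of 18, 6 of 30, 3 of 24 and 3 of 36 results over the 6 comparisons, and DESeq2 called 4, 3, 9, 2 and 2. Over all genes 8.61 to 17.6% stood at that unadjusted p in the 6 comparisons, and DESeq2 called 8.59 to 17.8%. Mboat4, which encodes the acyltransferase that octanoylates ghrelin, was found at 50.5 and 11.1 CPM in ghrelin cells of plates 2 and 4. It was also at 73.8 CPM in incretin/CCK cells of plate 3, at 0 in those of plates 2 and 4, and at most 8.5 CPM in serotonin and below-limit cells. Its ghrelin against below-limit comparison did not pass (edgeR adjusted p = 0.412). Dpp4, whose product inactivates the incretins, had 53.9, 93.3 and 151 CPM in incretin/CCK cells and 101, 126, 70.3 and 68.4 CPM in serotonin cells, against 20.4, 24.9, 7.1 and 38.3 CPM in below-limit cells. Dpp4 differed from below-limit cells by 2.13 ± 0.67 and 2.00 ± 0.61 (log2), and neither difference passed (edgeR adjusted p = 0.352 and 0.24).

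The chaperone and granule partners moved in part with the enzymes. Scg5, which encodes the chaperone 7B2 of the convertase made from Pcsk2, rose in serotonin cells (2.42 ± 0.47, edgeR adjusted p = 0.0412) at 67.1, 219, 106 and 328 CPM, against 24.7, 44.1, 9.8 and 29.8 CPM in below-limit cells. In ghrelin cells Scg5 had 232 and 417 CPM (2.62 ± 0.58, edgeR adjusted p = 0.0725) and in incretin/CCK cells 232, 44.5 and 160 CPM (1.97 ± 0.51, edgeR adjusted p = 0.236). Scg5 transcripts were thus found in every hormone class although those of Pcsk2 were rare. Chgb, a granin, rose in incretin/CCK cells (1.36 ± 0.21, edgeR adjusted p = 0.0346) and in serotonin cells (3.72 ± 0.20, edgeR adjusted p = 0.000145) and fell in ghrelin cells (−3.17 ± 0.27, edgeR adjusted p = 0.00355). In CPM, Chgb held 693 and 778 in ghrelin cells, 7825 to 21623 in incretin/CCK cells and 59783 to 93525 in serotonin cells, against 2361 to 7219 in below-limit cells. Chga, another granin, rose in serotonin cells (3.17 ± 0.23, edgeR adjusted p = 0.000239), and Chga was lower than there in incretin/CCK cells (edgeR adjusted p = 0.00104) and in ghrelin cells (0.0177). Chgb differed in all 3 pairs of hormone classes, with 4.54 ± 0.29 (log2) between incretin/CCK and ghrelin cells (edgeR adjusted p = 0.000346). Scg2, a granin that is itself cut by convertases, stood at 1843, 2186 and 2013 CPM in incretin/CCK cells of plates 2 to 4, against 7.1, 2.1 and 47.6 CPM in below-limit cells of these plates (8.27 ± 1.08, edgeR adjusted p = 0.0262). Serotonin cells had 204, 10.3, 10.7 and 82.0 CPM of Scg2 in plates 1 to 4. Ghrelin cells, low in Chgb and Pcsk1n, had 3101 and 2862 CPM of Chga in plates 2 and 4.

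Likeness between genes was measured as Pearson's r of log2(CPM + 10), centred by plate, over the 13 class-by-plate sums, among 6302 genes with a mean of at least 20 CPM. These sums share libraries and depth, and the values are a description. Among the genes most like Pcsk1 were Mcur1 (r = 0.96) and Scg5 (0.94). Pam was most like Itm2c (0.95), Cenpb (0.95) and Pcsk1 (0.94). Cpe was most like Cdhr5 (0.94), Sez6l2 (0.93) and Aplp1 (0.91), and had an r of 0.86 with Pam and 0.79 with Pcsk1. Pcsk1n was most like Pcbd1, Scpep1 and Fgfr3 (0.95 each) and had an r of 0.20 with Pcsk1. Cpd was most like Arl3 (0.92), Tysnd1 (0.92) and Prkx (0.91). For Pcsk2 (Kidins220, St5 and Ppp4r3b, 0.93 to 0.89) and Qpct (Rgs4, Plin3 and Gm44423, 0.92 to 0.89) the counts came from a handful of cells.

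Over whole plates, jejunum was compared with duodenum and 39 with 12 weeks, each with 1 plate on 1 side. With all cells of a plate summed, Pcsk1 had 194, 367, 189 and 496 CPM in plates 1 to 4, Cpe 1060, 767, 604 and 895 CPM, Pam 301, 425, 193 and 353 CPM and Cpd 122, 26.4, 36.1 and 27.3 CPM. Pcsk1n had 0, 58.2, 10.3 and 179 CPM. Pcsk2 had 3.98, 9.90, 2.84 and 0.06 CPM, with 3 counts in plate 4, and Qpct 0.04, 3.01, 0.88 and 1.16 CPM. The jejunum plate was the highest for Pcsk1 and Pcsk1n, the lowest for Pcsk2 and within the duodenum values for Cpe, Pam, Cpd and Qpct. The 39-week plate was the highest for Cpe and Cpd and the lowest for Pcsk1n and Qpct. Jejunum against duodenum gave edgeR log2 differences of 0.99 ± 0.53 for Pcsk1, 2.97 ± 1.92 for Pcsk1n and −6.34 ± 2.81 for Pcsk2. The comparison of 39 with 12 weeks gave 1.80 ± 0.51 for Cpd, and that of Pcsk1n rests on 0 counts in plate 1. Tissue rests on 1 jejunum plate and age on 1 plate, so plate cannot be told apart from either, and the plates also differ in the mix of classes, from 26.4% serotonin cells in plate 3 to 47.6% in plate 4.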

How the data were processed

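Libraries of single sorted cells were prepared with the BD Precise WTA kit, per the labels' protocols. The deposited values are counts, in whole numbers, for each gene in each cell. The submitters' processing notes list the mouse build mm10 and bcl2fastq 2.17.1.14, cutadapt 1.10, Bowtie2 2.2.8, STAR 2.5.3a, UMI-tools 0.4.4 and HTSeq 0.6.1, without roles. Whether counts were collapsed by molecular index is not given in the sources used here, so counts may include PCR copies, and intervals cover counting error only.

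Columns were assigned to plates by the experiment number in the column name and the pool number in the sample title, which left 0 columns unassigned. Raw counts were summed per plate and class where a class had at least 3 cells, which gave 13 sums. These were tested in 1 fit with edgeR 4.0.16 (quasi-likelihood, TMM, filterByExpr, plate as a block, Benjamini-Hochberg over 15050 genes, threshold 0.05) in R 4.3.3. The plate is the block because the class sums of a plate come from the same plate. A missing class in a plate was left out and not imputed. The SE is the log2 fold change divided by the square root of F. Whole plates were compared by the same test, without a block. The code was checked on simulated counts.

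Alternatives were RLE size factors, no low-count filter, DESeq2 1.42.0, limma 3.58.1 on mean log2(CPM + 1), no block, halved and doubled hormone limits, at least 5 cells, thinning, leaving 11 hormone and granin genes out of the library totals, and leaving out each plate. The members and gene lists were chosen with earlier results of these data known. All 7 members were named, with listed genes past the threshold, Scg5, Furin, Mboat4 and Dpp4, and the 3 genes most like each member, of which 1 is not reported here. Some genes in the lists were not in the table or not tested. Positions come from GENCODE M21 (GRCm38) and promoters from RefSeq. No cell filter or doublet caller was applied, since each well received 1 sorted cell.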

Additional observations from a re-analysis of the deposited data

Results flagged for a closer look

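For 4 comparisons between hormone classes the jejunum plate moved one way and the duodenum plates the other. These differences were not tested, and each rests on 1 jejunum plate. Log2 ratios of summed CPM are given. Pam in incretin/CCK against serotonin cells was 0.69 in the jejunum plate and −0.54 and −0.44 in duodenum plates 2 and 3. Pam in ghrelin against serotonin cells was 0.29 in the jejunum plate and −0.56 in plate 2. Pcsk1 in ghrelin against serotonin cells was 0.78 in the jejunum plate and −0.17 in plate 2. Cpd in incretin/CCK against serotonin cells was 0.35 in the jejunum plate and −3.69 and −1.49 in plates 2 and 3, from 26 and 104 incretin/CCK counts.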

How the results depend on the processing

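The 8 calls of Pcsk1, Cpe and Pam kept their direction under every alternative run; those that crossed the threshold are given with the results. Counts of called genes moved more. Against below-limit cells, incretin/CCK gave 51 and then 26 (RLE), 89 (no filter), 2395 (DESeq2), 10 (no replicate block), 24 and 125 (limits halved and doubled), 85 (thinned) and 85 (limma). Ghrelin gave 158, then 102 (RLE), 3904 (DESeq2), 300 (no replicate block) and 281 (limma). Its median gene moved from −1.68 to −1.36 with RLE, −0.14 with DESeq2 and −0.10 with limma. Serotonin gave 198, then 2111 (DESeq2), 327 (at least 5 cells) and 514 (limma). Incretin/CCK against serotonin gave 18, then 32 (no filter), 2054 (DESeq2), 41 (thinned), 76 (limma) and 6 (hormone genes left out). Ghrelin against serotonin gave 161, then 4064 (DESeq2), 398 (no replicate block) and 617 (limma). Incretin/CCK against ghrelin gave 102, then 2885 (DESeq2), 286 (no replicate block), 29 (limits halved) and 279 (limma). Jejunum against duodenum gave 0, then 9 (no filter) and 803 (DESeq2), and age 0, then 226 (no filter), 1008 (DESeq2) and 23 (thinned). Leaving out 1 plate gave 3 to 26, 0 to 32 and 103 to 137 for incretin/CCK, ghrelin and serotonin against below-limit cells. It gave 2 to 14 for incretin/CCK against serotonin, 2 to 71 for ghrelin against serotonin, 2 to 26 for incretin/CCK against ghrelin and 0 to 10 for tissue. The cause was not tested.

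The sign changed in 19 cases, none past the threshold. Without the replicate block these were Cpd in incretin/CCK (−0.45) and ghrelin (−0.018) against below-limit cells, and Pam (−0.053) and Pcsk1n (0.58) in incretin/CCK against serotonin. With halved limits they were Cpd in ghrelin against below-limit (−0.76), Pam in incretin/CCK against serotonin (−0.17) and Pcsk1 in ghrelin against serotonin (−0.092). With limma they were Pcsk1 (0.14) and Pam (−0.64) in incretin/CCK against serotonin and Cpe (−0.34) and Pam (−0.48) in incretin/CCK against ghrelin. With thinning it was Pam in incretin/CCK against serotonin (−0.077). Leaving out 1 plate, Cpd against below-limit cells ranged from −1.12 to 2.12 in incretin/CCK and from −4.20 to 2.21 in ghrelin cells. For incretin/CCK against serotonin the range was −0.30 to 0.022 for Pcsk1, −0.39 to 0.42 for Pam and −1.12 to 0.28 for Pcsk1n. For ghrelin against serotonin it was −0.13 to 0.72 for Pcsk1 and −0.86 to 0.11 for Pam.

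Ghrelin comparisons have no value at 5 cells or more, and age none with a plate left out, since 1 plate against 1 leaves no residual degree of freedom. The ghrelin class rests on 8 tested cells, and Pcsk2 and Qpct on 6 and 10 cells with at least 5 counts.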
